A study of Mus musculus with 9 samples.

Results

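The 9 genes described here govern where lymphocytes sit in the spleen: 8 encode receptors coupled to G proteins (S1pr1, S1pr4, Gpr183, Cxcr5, Cxcr4, Ccr7, Ccr6 and Cnr2), and Klf2 encodes a transcription factor, not a receptor. They were chosen by exact gene symbol. Of 45037 probe sets tested on the arrays, 10 carry these symbols; Gpr183 has 2 and the other 8 genes have 1 each. The samples were 5 splenic lymphomas of Sca1-MALT1 transgenic mice and 4 spleens of healthy wild-type mice, each hybridised as RNA of whole frozen tissue to a 1-colour Affymetrix array. MALT1 is a scaffold and protease that carries antigen receptor signals to NF-kB, and the transgene is named for the Sca1 promoter, which is active in stem and progenitor cells. Strain, age and sex are not stated in the labels. The labels do not tie each sample to an animal of its own, and each p-value therefore reflects sample-to-sample spread, part of which may be technical.

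Lymphocytes enter the spleen from the blood, and chemoattractant receptors then sort them. CXCR5 draws B cells into follicles toward CXCL13, CCR7 draws T cells and activated B cells toward CCL19 and CCL21 in the T zone, and GPR183 (EBI2) follows oxysterols to the outer follicle. Sphingosine 1-phosphate receptors counter this retention: S1PR1 leads cells to the blood and, in marginal zone B cells, holds them outside the follicle, where CNR2, the cannabinoid receptor of immune cells, also helps to keep them. KLF2 switches on S1pr1 in lymphocytes. Values below are log2 levels, so that a difference of 1 is a 2-fold difference, and every difference is lymphoma minus wild-type.

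All 10 probe sets had lower means in lymphoma, with a median difference of -0.38 against -0.01 over all probe sets, of which 52.8% were lower. The means were lowest relative to wild-type for Ccr6 (-0.99), Cnr2 (-0.96), Ccr7 (-0.91) and S1pr1 (-0.62). None of the 10 passed at a limma adjusted p under 0.05 (0 of 10), where 0.486% of all probe sets passed in either direction and 0.235% did so as lower. At an unadjusted p under 0.05 limma had 2 of the 10 lower, Ccr7 and Cnr2, against 8.76% of all probe sets, and 0 higher, against 5.15%. An unequal-variance test also called 0 of 10, with the same number, 2, at an unadjusted p under 0.05. The groups did not overlap, with lymphoma lower, for 1 of the 10 (Ccr7) against 4.08% of all probe sets. The members were picked with earlier results of these data known, so their shared direction is a description. All 10 probe sets had group means above the median of all values (6.92). The median and shares over all probe sets, many of them dim, are therefore not like for like. With dim probe sets left out, 4301 of 22968 reached an unadjusted p under 0.05 by limma in either direction, against 6267 of 45037 over all.

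**Figure D1:**
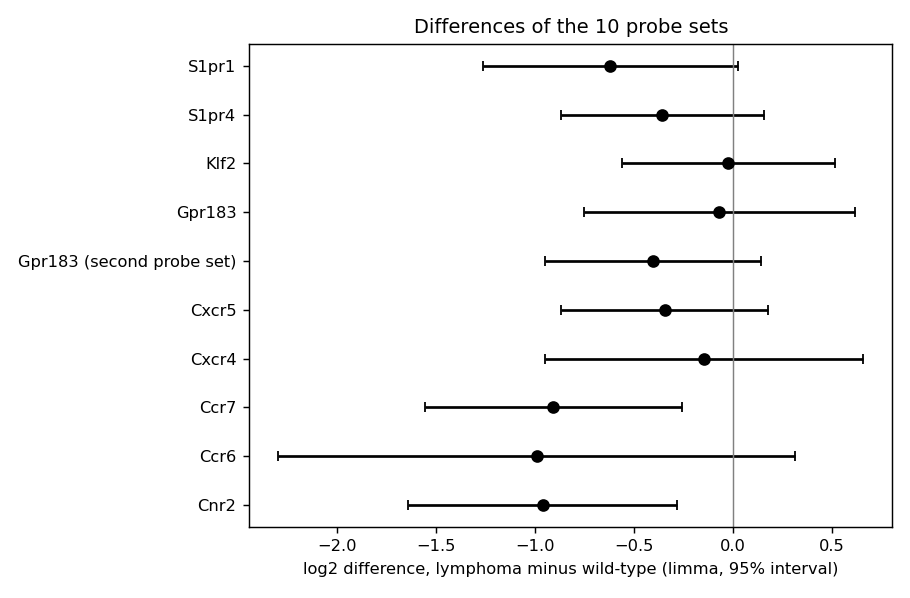
Log2 difference (lymphoma minus wild-type, horizontal axis) of the 10 probe sets, with the limma 95% interval as bars, from 5 lymphomas and 4 wild-type spleens. All points lie left of 0, and the intervals of Ccr7 (-1.56 to -0.26) and Cnr2 (-1.64 to -0.28) end below it.

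Ccr7, the receptor that leads T cells, dendritic cells and activated B cells into the T zone, was the one member whose groups stood apart. Its wild-type levels were 10.41, 10.16, 10.29 and 10.41, and its levels in lymphomas 1 to 5 were 8.74, 8.66, 9.89, 9.83 and 9.93. Every lymphoma lay below every wild-type spleen, and lymphomas 1 and 2 lay furthest below, 2.99-fold and 3.16-fold under the wild-type mean against 1.31-fold to 1.40-fold in the other 3. The difference of the means was -0.91 (SE 0.29, limma adjusted p = 0.211). The exact two-sided permutation test over samples gave p = 0.0317, where 0.00794 is the smallest p that 4 against 5 samples can give. The difference lay between -1.04 and -0.72 with any 1 array left out. Without lymphomas 1 and 2 it was -0.44, with a limma adjusted p of 0.0455; these 2 arrays were left out because earlier results of these data set them apart.

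The mean of the T-cell markers moved with Ccr7. Of 14 listed T-cell markers 11 were measured, all 11 had lower means in lymphoma, and limma called 0 of them, with 3 at an unadjusted p under 0.05. These 3 were Lef1 (-1.70), Cd8b1 (-1.69) and Cd8a. The differences were smallest for Cd3e (-0.14), Cd4 (-0.20), Cd28 (-0.28) and Cd5 (-0.31), and the remaining markers lay between Cd247 (-0.76) and Cd6 (-0.42). Cd3e, Cd4, Cd28 and Cd5 lay above every wild-type spleen in lymphoma 5 and below every one in lymphomas 1 and 2. The mean level of the 11 markers ranged from 9.97 to 10.17 in wild-type and from 8.53 to 9.997 in lymphoma, with lymphomas 1 and 2 at 8.54 and 8.53. Across the 9 arrays the Pearson r between Ccr7 and this mean was 0.98, and 0.98 after the group means were removed, a description in which the arrays share group and tissue makeup. Taken relative to the T-cell marker mean of its own array, Ccr7 differed from the wild-type average by -0.38 to -0.08 in the 5 lymphomas, 4 of which lay below the lowest wild-type spleen. The 7 measured dendritic cell markers also had lower means in lymphoma, with a difference of -0.38 for their mean. Limma called 0 of these 7, with 2 at an unadjusted p under 0.05. In RNA of whole tissue, fewer cells of a type and less RNA per cell cannot be told apart.

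Cnr2 followed a similar order of samples. Its wild-type levels were 9.999, 10.38, 10.85 and 10.68, and those of lymphomas 1 to 5 were 8.90, 8.83, 9.71, 10.03 and 10.10. All 5 lymphomas lay below the wild-type mean and 3 below the lowest wild-type spleen, so the groups overlapped only through wild-type spleen 1. The difference was -0.96 (SE 0.30, limma adjusted p = 0.208; exact permutation p = 0.0476) and lay between -1.12 and -0.79 with any 1 array left out. Over the 9 arrays Cnr2 and Ccr7 had an r of 0.92, or 0.84 within groups. With the T-cell marker mean as a covariate the difference was -0.27 for Ccr7 (limma unadjusted p = 0.0234) and -0.39 for Cnr2 (0.104). With the B-cell marker mean it was -0.62 (0.0915) and -0.73 (0.0749), and with the erythroid marker mean -0.49 (0.0353) and -0.47 (0.0123). None of these fits called either gene.

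The RefSeq promoter table (build GRCm38.p6), matched by symbol, holds 6 of the 9 genes. Of the 2 genes at an unadjusted p under 0.05 it holds Cnr2, with 2 starts. The 250 bases before each Cnr2 start are shown to let a reader see what lies upstream of a gene that was low in the same arrays as Ccr7, together with the second of the 2 Ccr6 starts, chosen after its values were seen because it alone held a kappaB consensus motif, the site type of NF-kB. Capitals mark motif matches on either strand. The first Cnr2 start (chr4:135894939-135895188, plus strand) held no match. The second (chr4:135911430-135911679, plus strand) has in capitals a run of G that contains 3 overlapping matches to the KLF motif CCNCNCCC. The Ccr6 window (chr17:8242276-8242525, plus strand) has in capitals 3 overlapping kappaB matches on the 2 strands, which form 1 run, 71 to 81 bases before the start.
Cnr2 first start: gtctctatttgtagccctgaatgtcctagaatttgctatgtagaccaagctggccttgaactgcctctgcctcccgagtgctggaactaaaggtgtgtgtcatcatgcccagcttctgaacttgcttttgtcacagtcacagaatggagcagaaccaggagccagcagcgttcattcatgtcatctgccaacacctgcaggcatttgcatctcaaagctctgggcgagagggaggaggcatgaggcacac
Cnr2 second start: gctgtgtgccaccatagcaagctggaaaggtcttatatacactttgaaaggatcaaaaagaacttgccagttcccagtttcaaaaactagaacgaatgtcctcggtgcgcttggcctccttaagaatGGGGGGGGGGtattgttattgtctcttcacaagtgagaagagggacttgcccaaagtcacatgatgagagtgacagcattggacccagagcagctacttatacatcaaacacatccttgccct
Ccr6 second start: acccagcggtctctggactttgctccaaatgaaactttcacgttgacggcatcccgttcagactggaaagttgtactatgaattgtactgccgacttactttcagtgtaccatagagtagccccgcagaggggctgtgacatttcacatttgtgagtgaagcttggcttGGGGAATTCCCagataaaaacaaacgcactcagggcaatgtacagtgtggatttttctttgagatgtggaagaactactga

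Over 32851 promoter windows of this length, 45.9% held the KLF motif, 3.90% the kappaB motif and 3.17% the FOXO motif GTAAACA. Among the 8 windows of the member genes, 3 held the KLF motif (Cxcr4, Klf2 and the second Cnr2 start), 1 the kappaB motif and 0 the FOXO motif. These matches describe letters and are not binding sites measured here.

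Ccr6, a receptor of naive and memory B cells for CCL20, had the widest spread of all members. Its wild-type levels were 12.36, 12.55, 12.35 and 12.49, and those of lymphomas 1 to 5 were 11.30, 9.19, 12.33, 11.93 and 12.49. Lymphoma 2 lay 9.49-fold below the wild-type mean and lymphoma 1 lay 2.21-fold below it, whereas lymphoma 5 lay inside the wild-type range. The SD was 1.34 among lymphomas and 0.099 among wild-type spleens. The difference of -0.99 (SE 0.58, limma adjusted p = 0.488; exact permutation p = 0.151) became -0.43 without lymphoma 2, and its 95% interval was -2.30 to 0.31.

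The Ccr6 level of lymphoma 2 did not track the mean of the general B-cell markers of that array. The mean of 9 measured B-cell markers was 12.02 in lymphoma 2, a difference of -0.15 from the wild-type mean, and 11.04 in lymphoma 1, a difference of -1.14. The single markers were mixed in lymphoma 2. Ms4a1 (14.17), Cd79a (11.92) and Blk (12.79) lay above every wild-type spleen. Cd22 (12.92), Fcrla (9.94) and Ebf1 (10.27) lay below all of them, and the rest lay inside the wild-type range. All 9 B-cell markers had lower means in lymphoma, and limma called 0 of them, with 2 at an unadjusted p under 0.05. Of 5 listed follicular B-cell markers 3 were measured (Fcer2a, Cr2 and Bach2), and Cr2 is also in the marginal zone list. Their mean differed from wild-type by -2.11 in lymphoma 2 and -2.02 in lymphoma 1, against -0.90 to -0.66 in the others. In lymphoma 2 the 3 genes stood at 7.08, 12.06 and 10.53, and in lymphoma 1 at 8.72, 10.73 and 10.51. Their wild-type means were 11.02, 13.22 and 11.78, so that Fcer2a was furthest below in lymphoma 2. Erythroid markers stood 4.07 and 3.83 above the wild-type mean in lymphomas 1 and 2. The part of these cell types in the Ccr6 values was not tested beyond the covariate fits. With the T-cell marker mean as a covariate the Ccr6 difference was 0.09, and with the B-cell marker mean it was -1.02. Relative to the T-cell marker mean of its own array, Ccr6 differed from the wild-type average by 0.36 in lymphoma 1 and -1.74 in lymphoma 2. In the other lymphomas it differed by -0.21 to 0.28.

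**Figure D2:**
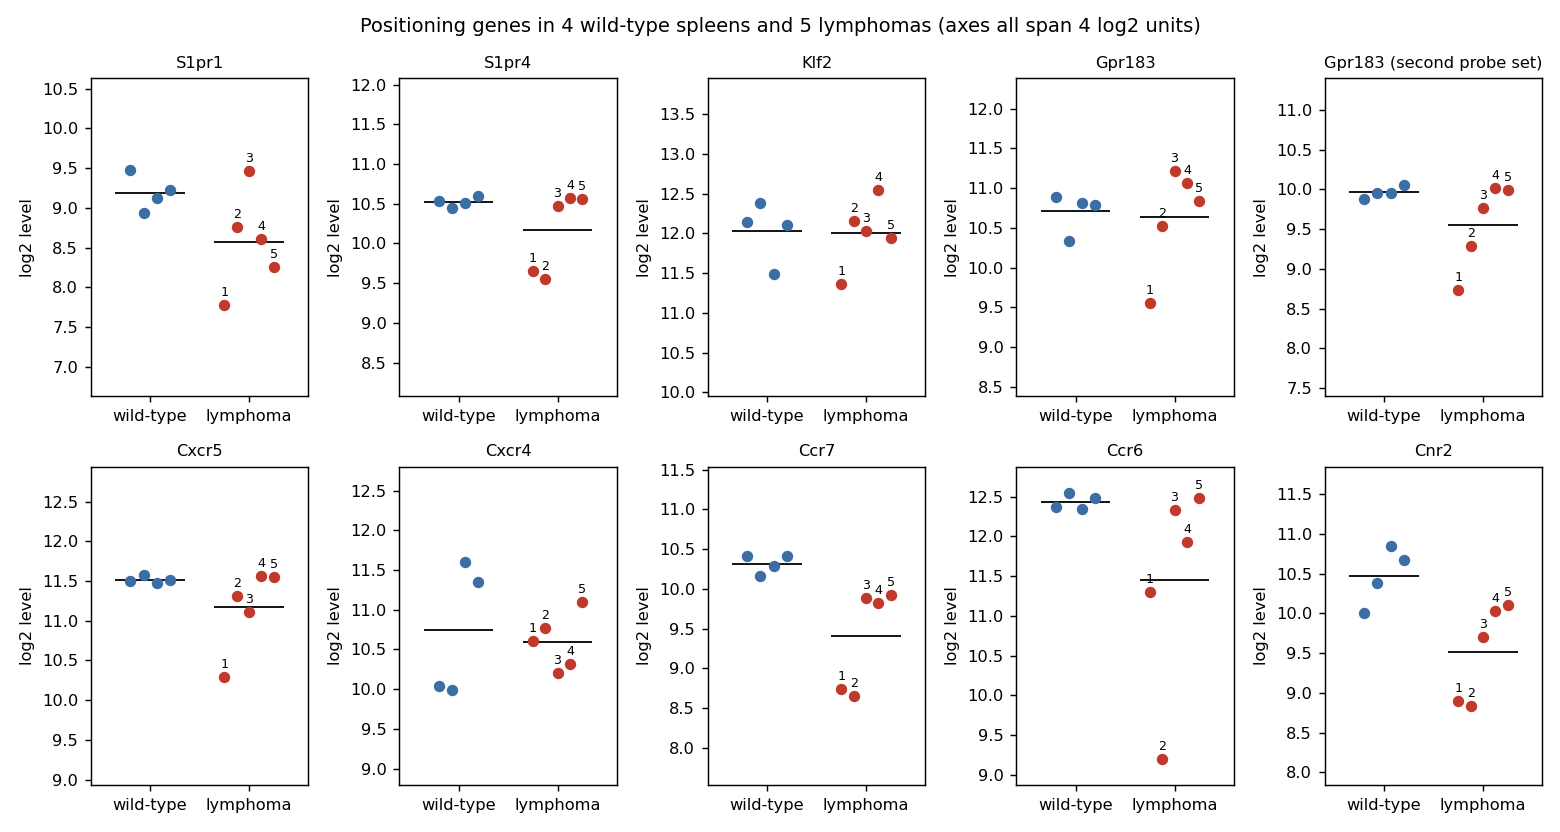
Log2 level (vertical axis, 4 log2 units in each panel) of the 10 probe sets in 4 wild-type spleens (blue) and 5 lymphomas (red, numbered); lines are group means. Lymphomas 1 and 2 are the lowest for Ccr7, Cnr2, S1pr4 and Ccr6, and lymphoma 2 stands at 9.19 for Ccr6.

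Cxcr5, the receptor that brings B cells into follicles, was furthest from wild-type in lymphoma 1. It was tightly held in wild-type at 11.50, 11.57, 11.48 and 11.51, and stood at 10.29, 11.31, 11.12, 11.57 and 11.56 in lymphomas 1 to 5. Lymphomas 4 and 5 were inside the wild-type range, lymphomas 2 and 3 a little below it, and lymphoma 1 was 2.33-fold below the wild-type mean. The difference was -0.35 (SE 0.23, limma adjusted p = 0.551; exact permutation p = 0.246), or -0.13 without lymphoma 1. In lymphoma 1 Cxcr5 differed from the wild-type mean by -1.22 and the B-cell marker mean by -1.14; with that marker mean as a covariate the Cxcr5 difference was 0.07. Its r with the B-cell marker mean was 0.89 over the 9 arrays, while that of Ccr6 was 0.26. With the T-cell marker mean the r was 0.68 for Cxcr5 and 0.86 for Ccr6. With the erythroid marker mean it was -0.75 for both.

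**Figure D3:**
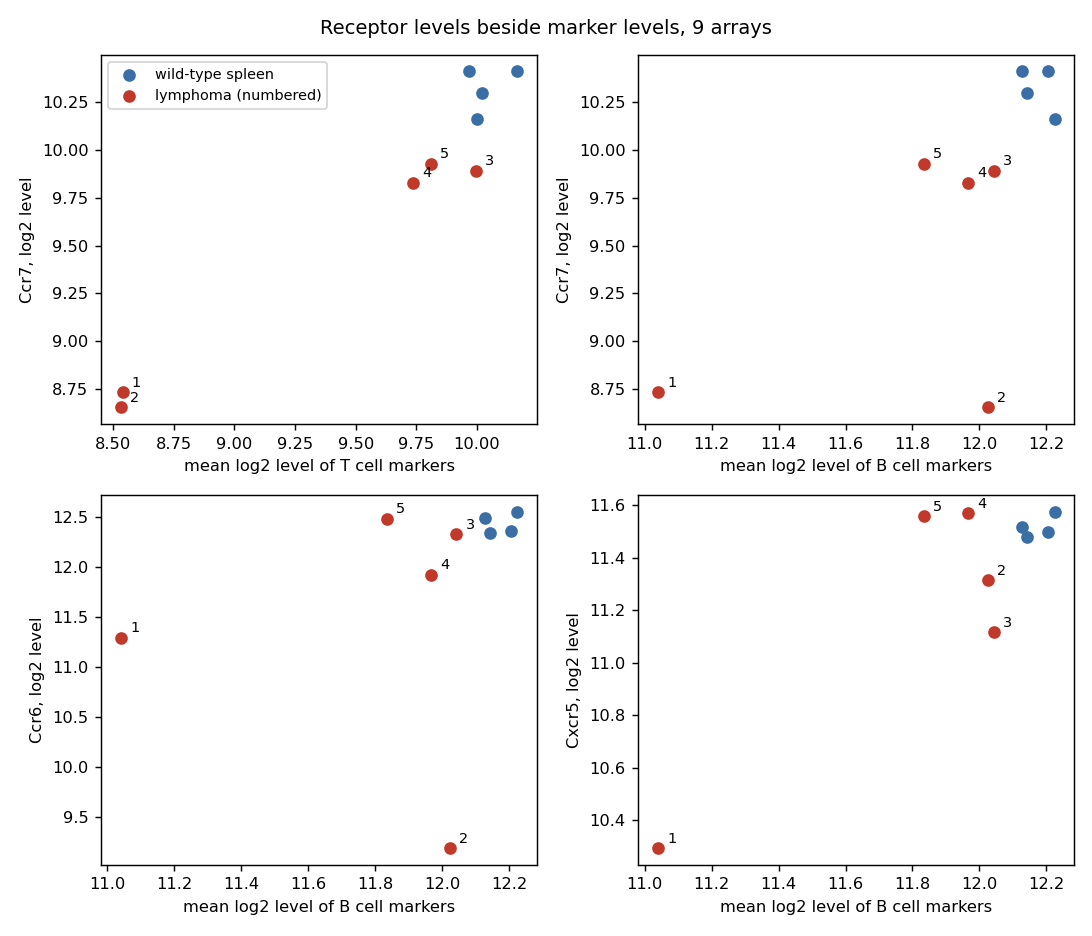
Log2 level of Ccr7, Ccr6 or Cxcr5 (vertical axes) against the mean log2 level of the T-cell or B-cell markers (horizontal axes) in the 9 arrays, with lymphomas in red and numbered. Ccr7 lies near one line with the T-cell markers, while lymphoma 2 has Ccr6 at 9.19 beside B-cell markers at 12.02.

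Among the receptors for sphingosine 1-phosphate, S1pr1 and S1pr4 were both below the wild-type range in lymphomas 1 and 2, and S1pr1 also in lymphomas 4 and 5. S1pr1, which carries lymphocytes out of tissue, stood at 9.48, 8.93, 9.13 and 9.23 in wild-type and at 7.78, 8.75, 9.46, 8.61 and 8.25 in lymphomas 1 to 5. All lymphomas except lymphoma 3 were below the lowest wild-type spleen. The difference was -0.62 (SE 0.29, limma adjusted p = 0.379; exact permutation p = 0.103), with -0.84 without lymphoma 3 and -0.42 without lymphoma 1. With the B-cell marker mean as a covariate it was -0.16.

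S1pr4, a related receptor of lymphocytes and myeloid cells, divided the lymphomas cleanly into 2 and 3. Wild-type levels were 10.53, 10.45, 10.51 and 10.60. Lymphomas 1 and 2 stood at 9.66 and 9.56, and lymphomas 3 to 5 at 10.47, 10.58 and 10.56, inside the wild-type range. The difference over all 5 was -0.36 (SE 0.23, limma adjusted p = 0.524; exact permutation p = 0.341), and 0.01 without lymphomas 1 and 2; it was -0.21 without lymphoma 2 and -0.23 without lymphoma 1 alone. Its r with the T-cell marker mean was 0.97 over the 9 arrays.

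Klf2, the activator of S1pr1, differed least. It stood at 12.14, 12.39, 11.49 and 12.10 in wild-type and at 11.36, 12.15, 12.03, 12.54 and 11.94 in the lymphomas, with the groups intermixed. The difference was -0.02, with a 95% interval of -0.56 to 0.51 (limma adjusted p = 0.979, exact permutation p = 0.929). Its sign changed in 8 of 24 alternative analyses, some of which alter only the p-value. Klf2 and S1pr1 had an r of 0.35 over the 9 arrays, or 0.41 within groups. In lymphoma 5 S1pr1 differed from the wild-type mean by -0.94 and Klf2 by -0.09. In lymphoma 1, the lowest array for both genes, they differed by -1.41 and -0.67.

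Gpr183, the oxysterol receptor, was read by 2 probe sets that differed in size. On the brighter one the wild-type levels were 10.89, 10.34, 10.82 and 10.79 and the lymphomas stood at 9.55, 10.52, 11.21, 11.07 and 10.84. Lymphoma 1 was 2.23-fold below the wild-type mean, while lymphomas 3 and 4 were above every wild-type spleen. The difference was -0.07 (95% interval -0.75 to 0.61, limma adjusted p = 0.946) and 0.20 without lymphoma 1. The dimmer probe set had a difference of -0.41 (limma adjusted p = 0.499), or -0.20 without lymphoma 1, and did not place any lymphoma above the wild-type range. Both probe sets put lymphoma 1 lowest, and their r was 0.79.

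Cxcr4, which answers CXCL12 and holds plasma cells and precursors in their niches, was the one member with more spread in wild-type than in lymphoma. Wild-type spleens 1 and 2 stood at 10.04 and 9.99 and spleens 3 and 4 at 11.61 and 11.35, with the lymphomas between them at 10.60, 10.77, 10.20, 10.32 and 11.10. The difference was -0.15, with a 95% interval of -0.95 to 0.66 (limma adjusted p = 0.895; exact permutation p = 0.730), and 0.14 without wild-type spleen 3 or 0.06 without wild-type spleen 4. For the other 9 probe sets the SD was larger among lymphomas, as it was for 75.2% of all probe sets. The ratio of the 2 SDs had a median of 4.13 over the 10 probe sets and 1.69 over all. These medians are not like for like, because all 10 probe sets were brighter than the median of all values.

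Lymphoma 1 had 9 of the 10 probe sets below the lowest wild-type spleen, lymphoma 2 had 7, and lymphomas 3, 4 and 5 had 5, 3 and 2. Over all probe sets, dim ones included, the same shares were 37.9%, 34.1%, 26.5%, 26.6% and 28.4%. In lymphoma 1 the exception was Cxcr4, and in lymphoma 2 the exceptions were Cxcr4, Klf2 and the brighter Gpr183 probe set. Lymphoma 3 was below in Ccr7, Cnr2, Cxcr5, Ccr6 and the dimmer Gpr183 probe set, lymphoma 4 in S1pr1, Ccr7 and Ccr6, and lymphoma 5 in S1pr1 and Ccr7. The neutrophil marker mean stood 6.09, 2.69, 1.67, 0.01 and 2.69 above the wild-type mean in lymphomas 1 to 5. It was highest in lymphoma 1 and equal in lymphomas 2 and 5, which had 7 and 2 low probe sets. Over the 9 arrays its r with the 10 probe sets ran from -0.89 (the dimmer Gpr183 probe set) to 0.02 (Cxcr4). Its part in the low values was not tested. All 9 erythroid and all 8 neutrophil markers measured had higher means in lymphoma; limma called 0 of either, with 1 and 7 at an unadjusted p under 0.05. The erythroid mean ranged from 7.004 to 8.63 in wild-type and from 6.48 to 11.51 in lymphoma, and the neutrophil mean from 6.879 to 7.61 and from 7.21 to 13.29.

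**Figure D4:**
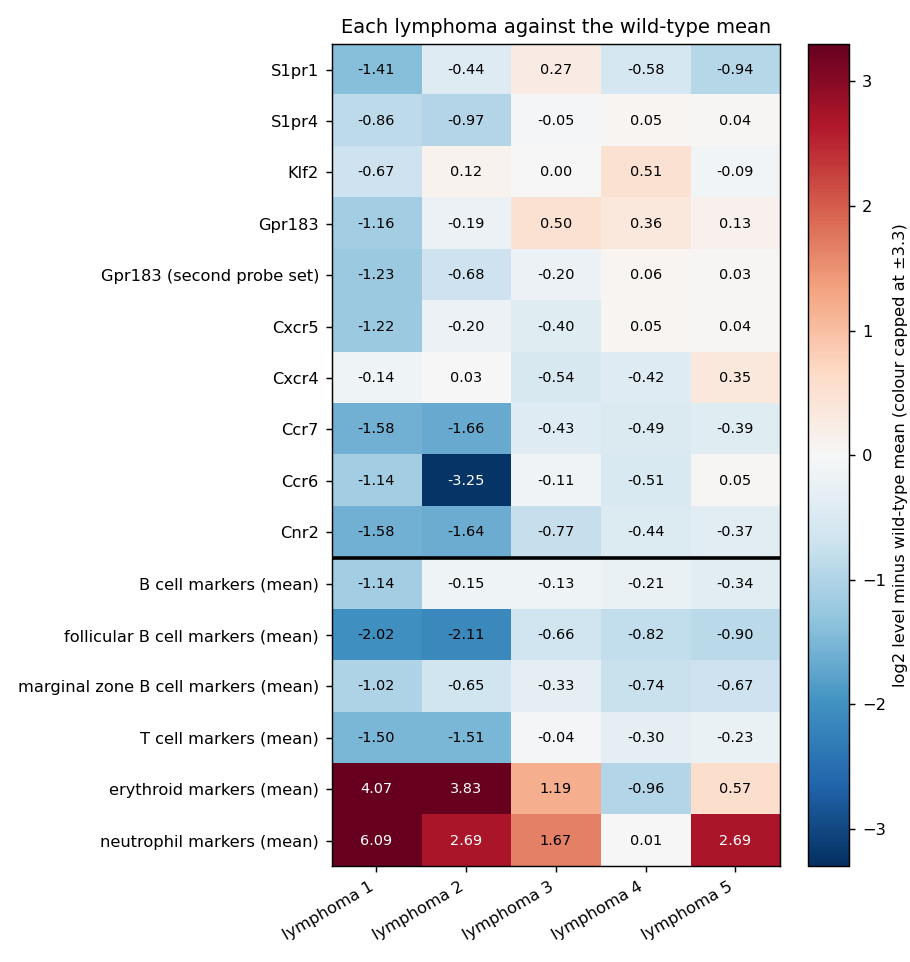
Log2 level of each lymphoma minus the wild-type mean for the 10 probe sets (upper rows) and for the means of 6 marker lists (lower rows); blue is lower and red higher than wild-type. Ccr6 in lymphoma 2 (-3.25) is the lowest member value, and erythroid markers stand at 4.07 and 3.83 in lymphomas 1 and 2.

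The genes around these receptors were read from 8 lists of 82 genes, of which 76 were measured and 6 were not analysed here. Limma called 1 of the 76 higher and 0 lower. An unadjusted p under 0.05 was reached by 14 with higher means (18.4%, against 5.15% of all probe sets). It was reached by 7 with lower means (9.21%, against 8.76%). These shares are not like for like, because each listed gene is read by its brightest probe set. With dim probe sets left out, 4301 of 22968 reached it in either direction, against 6267 of 45037 over all. The lists were chosen with earlier results of these data known. The called gene was Vcam1, the endothelial, stromal and macrophage ligand of the integrin that Itga4 helps to form. It rose from 12.34 ± 0.09 (SD, n = 4) to 13.11 ± 0.17 (SD, n = 5), a difference of 0.77 (limma adjusted p = 0.0183), and is also in the macrophage marker list, whose mean level was 10.54 to 10.995 in lymphoma and 9.69 to 9.90 in wild-type. Of the 11 macrophage markers limma called 6 higher, Vcam1 among them, and 1 lower, the scavenger receptor gene Marco (-1.64, adjusted p = 0.0148). The integrin list had a median difference of -0.01. At an unadjusted p under 0.05 limma had 2 higher genes, Vcam1 and Itgb1 (0.58), and 1 lower gene, Icam2 (-0.66). The addressin gene Madcam1 stood at -0.77 and did not reach it. Of these genes only Vcam1 passed after adjustment.

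Of the ligand list, limma called 0 of 6 measured genes and 0 at an unadjusted p under 0.05 (median difference -0.01). Cxcl13, the ligand of CXCR5 made by follicular stroma, had a mean of 13.92 ± 0.09 (SD, n = 4) in wild-type and 13.44 ± 0.50 (SD, n = 5) in lymphoma (difference -0.48, limma adjusted p = 0.385). Its lowest levels were 12.83 in lymphoma 1 and 13.01 in lymphoma 5, while Cxcr5 was lowest in lymphoma 1 and inside the wild-type range in lymphoma 5. Cxcl12, the ligand of CXCR4, spread from 10.43 in lymphoma 2 to 12.55 in lymphoma 5 around a difference of 0.05. Ccl20, the ligand of CCR6, lay below the median of all values (6.92) in every array, at 6.20 to 6.58 (difference -0.16). The decoy receptor gene Ackr2 stood at 0.62.

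In the sphingosine 1-phosphate axis limma called 0 of 12 genes (median difference 0.14). An unadjusted p under 0.05 was reached by 3 with higher and 1 with lower means. S1pr3, the receptor of marginal zone B cells, stood at 12.71, 12.86, 12.44 and 12.45 in wild-type and at 11.45, 11.91, 12.09, 11.49 and 11.86 in lymphomas 1 to 5. The groups did not overlap, and the limma adjusted p was 0.0523. It was low in all 5 lymphomas, including those where S1pr4 lay in the wild-type range; the mean of the marginal zone list, to which S1pr3 belongs, differed from wild-type by -1.02 to -0.33. Limma called 2 of the 8 marginal zone markers lower, Myof (-0.85, adjusted p = 0.0246) and Asb2 (-0.58, adjusted p = 0.0409), and 6 of 8 were lower at an unadjusted p under 0.05. S1pr5, a receptor of natural killer cells, stood at 4.75 to 4.99 in wild-type and at 5.63, 5.40, 7.002, 7.08 and 6.94 in lymphomas 1 to 5 (difference 1.51, limma adjusted p = 0.112). Only lymphomas 3 to 5 exceeded the median of all values. The lipid phosphatase genes Plpp1 and Plpp3, whose products can break down sphingosine 1-phosphate, stood at 0.64 and 0.70 (limma adjusted p 0.141 and 0.146).

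The oxysterol list, which holds enzymes that make and remove the GPR183 ligand, had 0 of 4 called by limma (median difference -0.19), and 1 higher and 2 lower genes reached an unadjusted p under 0.05. Ch25h, the enzyme that starts ligand synthesis, stood at 8.59, 8.53, 8.80 and 8.82 in wild-type and at 8.50, 6.94, 8.02, 7.89 and 8.02 in lymphomas 1 to 5. All lymphomas were below all wild-type spleens, lymphoma 1 by little (difference -0.81, limma adjusted p = 0.211). Cyp27a1 stood at -0.53 and Hsd3b7, which helps to inactivate the ligand, at 0.37. Gpr183 on its brighter probe set was lowest in lymphoma 1, where Ch25h was highest among the lymphomas.

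Of 8 genes of the endocannabinoid axis limma called 0 (median difference 0.23), while 3 higher and 0 lower genes reached an unadjusted p under 0.05. The ligand-making lipases Dagla and Daglb stood at 0.40 and 0.36, and Mgll, which breaks the ligand down, at 0.90, with lymphomas 1 and 2 at 9.65 and 9.499 and the other 3 at 7.997 to 8.25. Mgll was highest in lymphomas 1 and 2, where Cnr2 was lowest. Erythroid markers were also highest in these 2 lymphomas, at 4.07 and 3.83 above the wild-type mean. A link between these values was not tested. Cnr1, the cannabinoid receptor of the nervous system, lay below the median of all values in both groups, with means of 6.31 and 6.34.

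The KLF2 and FOXO1 list had 0 of 6 called and 0 at an unadjusted p under 0.05 (median difference -0.19). Foxo1, which controls homing genes in lymphocytes, stood at 11.04 and 11.01 in lymphomas 1 and 2 and at 11.95 to 12.22 in the others, against 12.08 to 12.20 in wild-type. Klf13 stood at -0.22 and Il7r, the interleukin 7 receptor gene, at -0.42. Il7r was at 10.54 and 10.25 in lymphomas 1 and 2 and at 11.68 in lymphoma 5. In lymphomas 3 and 4 it was at 12.43 and 12.79, above every wild-type spleen (11.91 to 12.03). Of 12 other chemokine receptors 0 were called (median difference 0.06), while 3 reached an unadjusted p under 0.05: Ccr1 (1.08) and Cx3cr1 (0.78), which are receptors of myeloid cells, and Ccr9 (-0.99), the gut-homing receptor. Among 20 signalling genes limma called 0 (median difference -0.15), while 3 higher and 2 lower genes reached an unadjusted p under 0.05. Rgs1, a brake on chemokine receptor signals, stood at 0.67, the receptor kinase gene Grk5 at 0.44 and Rgs14 at -0.34 (limma adjusted p 0.114, 0.124 and 0.154).

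**Figure D5:**
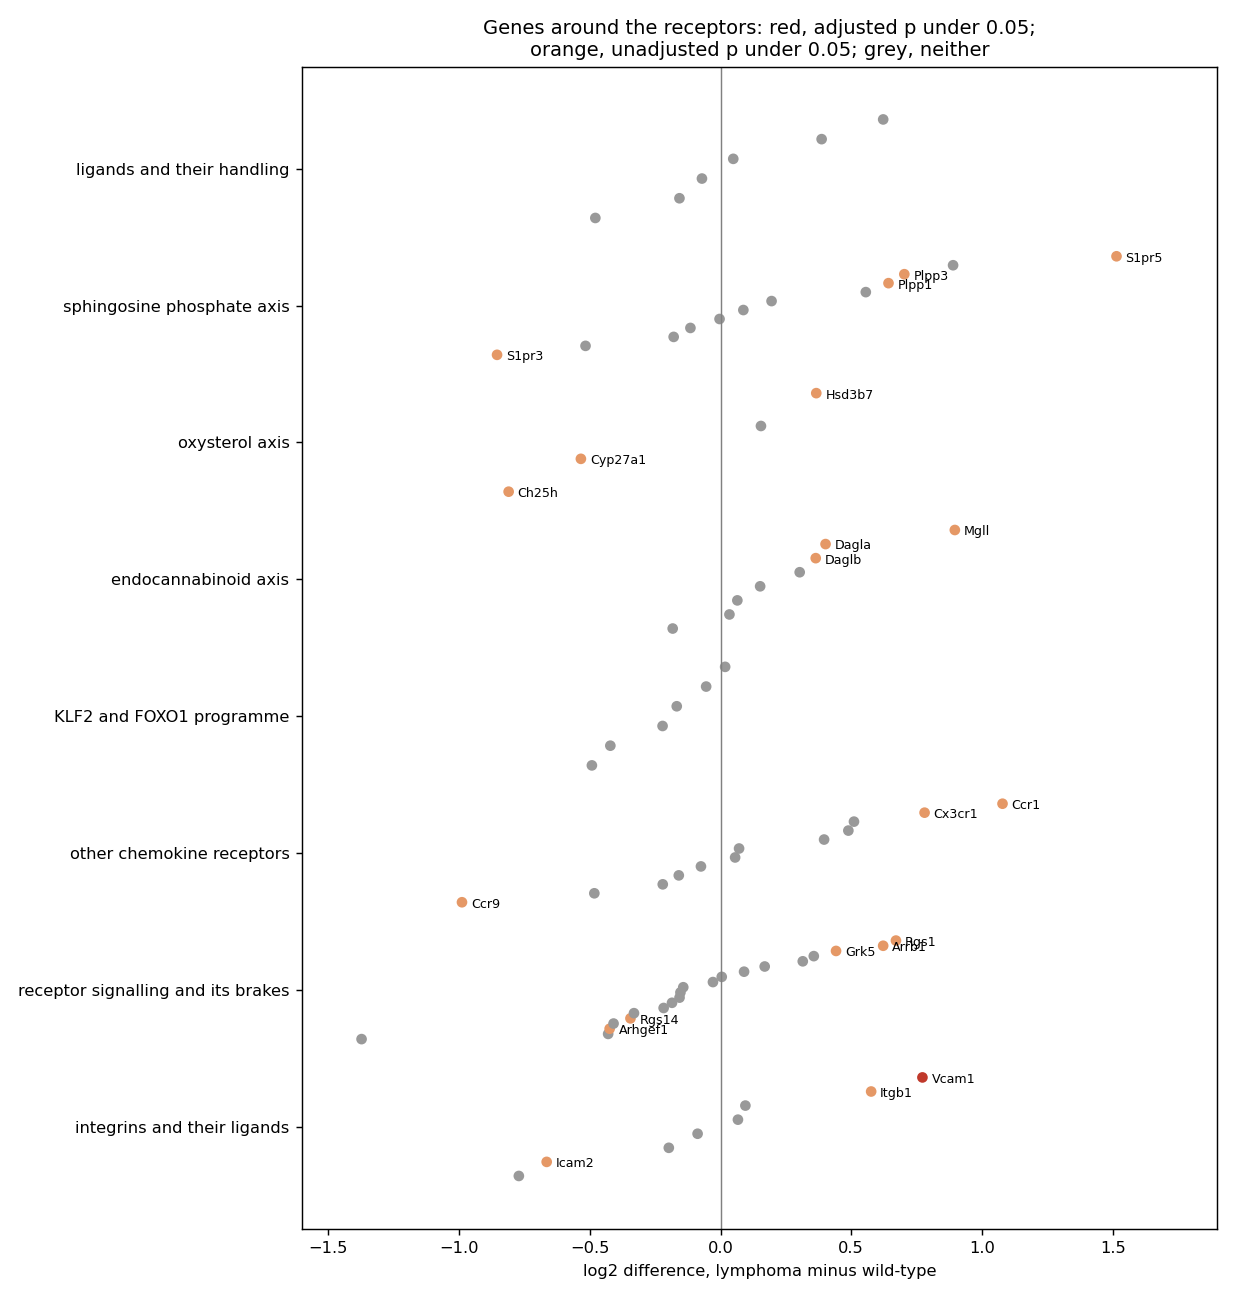
Log2 difference (lymphoma minus wild-type, horizontal axis) of the 76 measured genes of 8 lists; red marks a limma adjusted p under 0.05, orange an unadjusted p under 0.05 and grey neither, and the genes at an unadjusted p under 0.05 are named. Vcam1 (0.77) is the only red point, and S1pr5 (1.51) lies furthest right.

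The genes whose 9 values were most like those of Ccr7, among 11183 genes above the median level, were Chst10, Evl and Pitpna (Pearson r of 0.98 each, n = 9 arrays). For Cnr2 they were Tmem189 (0.99), Mical1 (0.97) and Bin1 (0.97). After the group means were removed these 6 values were between 0.95 and 0.98. The arrays share tissue and group.

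The arrays were otherwise alike in scale, with medians of 6.88 to 6.97. Each B-cell and T-cell marker had group means above the median of all values (6.92) in both groups. Averaged over the 9 arrays, the lowest were Pax5 (9.65) and Cd8b1 (8.42). Cd8b1 had a mean of 7.67 in lymphoma and stood at 6.47 in lymphoma 1, below that median. The 18S control level was highest in lymphoma 2 at 13.26, against 11.50 to 11.80 in wild-type and 11.78 to 12.51 in the other lymphomas. With it as a covariate the differences were -0.50 for Ccr7 (limma unadjusted p = 0.183) and -0.62 for Cnr2 (0.141), and that of Ccr6 turned to 0.26. The Xist level was 7.92 and 7.15 in lymphomas 3 and 5 and 13.69 to 13.91 in the other 7 arrays (Xist is transcribed from the inactive X chromosome; the labels give no sex). With it as a covariate the Ccr7 difference was -1.26. No wild-type spleen had a low Xist level, so this fit sets lymphomas 3 and 5 apart and compares mainly the other lymphomas with wild-type. It cannot separate sex from anything else that differs in those 2 lymphomas. The number of the 10 probe sets lower at an unadjusted p under 0.05, which was 2 with no covariate, was 6 with Xist, 2 with the erythroid markers, 1 with the T-cell markers (Ccr7), 0 with the B-cell markers and 0 with 18S.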

How the data were processed

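RNA of 9 frozen spleen samples was measured on Affymetrix arrays. The deposited values are log2 levels made by the authors with RMA, per the submitters' processing notes, with settings and probe mapping not given in the sources used here. Such values are normalized between arrays, which can compress differences near the background. The table holds 45101 probe sets, of which 64 controls were left out. Symbols came from the platform annotation: 34958 probe sets had 1, 932 several and 9211 none, and a gene was shown by its probe set with the highest mean. The comparison used limma 3.58.1 (R 4.3.3; lmFit, eBayes, two-sided, no covariate, no filter), and p-values were adjusted by Benjamini-Hochberg over all 45037 probe sets tested. Single values were also tested with an exact two-sided permutation test over samples. The fit was tested on simulated data. Alternatives covered scaling, a filter on dim probe sets, the variance model, array weights, a replicate block, marker, Xist and 18S covariates, and leaving out arrays. Members, lists and alternatives were chosen with earlier results of these data known. Every member is named; in each list called genes, or else up to 3 with the smallest p, were to be named, and some further genes were chosen after their values were seen. Protein sequences were not used here. Python 3.11.15 and matplotlib 3.10.9 drew the figures. The number of arrays limits the precision.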

Additional observations from a re-analysis of the deposited data

How the results depend on the processing

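Over 24 alternatives (23 for the dimmer Gpr183 probe set) Ccr7, Cnr2 and S1pr1 stayed lower in lymphoma, from -1.26 to -0.27, from -1.24 to -0.39 and from -0.84 to -0.16. Some alternatives could not move a difference. The filter on dim probe sets, the changes of variance model, the unequal-variance test and 1 probe set per gene alter only the p-values. The replicate block gave the same differences as leaving out lymphoma 5. None of the 10 probe sets was called (0) except 1, Ccr7, without lymphomas 1 and 2. Signs changed with the T-cell markers as a covariate for Gpr183 (0.47 and, on its dimmer probe set, 0.073), Klf2 (0.18), Ccr6 (0.088) and S1pr4 (0.13). With the B-cell markers they changed for Cxcr5 (0.073), Gpr183 (0.47) and Klf2 (0.33), and with the erythroid markers for Gpr183 (0.28) and Klf2 (0.18). The 18S level turned Gpr183 (0.036) and Ccr6 (0.26), array weights Gpr183 (0.15) and Cxcr4 (0.078), and quantile normalization Klf2 (0.0036). Without lymphomas 1 and 2 Gpr183 was at 0.33, Klf2 at 0.14 and S1pr4 at 0.012. With 1 array left out, Klf2 ranged from -0.20 to 0.14, Cxcr4 from -0.40 to 0.14 and Gpr183 from -0.21 to 0.20. The cause of these changes was not tested.

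Limma called 219 probe sets. The number was 821 with array weights, 935 without lymphomas 1 and 2, 130 of 18193 with 1 probe set per gene (fewer features), and 22, 88, 118, 111 and 7 with B-cell, T-cell, erythroid, Xist and 18S covariates. It ranged from 0 to 530 with 1 array left out: 0 without wild-type spleen 2 or 3 (4191 and 4505 at an unadjusted p under 0.05), 18 and 14 without spleens 1 and 4, 530 and 48 without lymphomas 2 and 5, in that order. The unequal-variance test called 0; at an unadjusted p under 0.05 it had 5463, where limma had 6267. With the replicate block 5 were called; same-numbered samples had deviation correlations of -0.19 to 0.15, 3 of 8 samples correlated best with their own number, and the numbers were not taken as pairs.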
